A study of Mus musculus with 12 samples.

Results

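The 8 smooth muscle contractile genes Acta2, Tagln, Myh11, Cnn1, Myl9, Actg2, Des and Lmod1 were followed in RNA of dermal papilla (DP) cells. They were taken by gene symbol, and all 8 were found among the 15209 genes listed at P14 and the 15334 listed at P16, so that each had a value in all 12 libraries. DP cells are the mesenchymal cells at the base of the hair follicle. They were labelled with YFP in the skin of mice whose Cre recombinase is driven by Corin (Cor-cre), sorted by FACS in 2 rounds, and sequenced after depletion of ribosomal RNA. There were 3 control and 3 dMF1/2 mice at postnatal day 14 (P14), and as many at P16, late in the growth phase (anagen) of the first hair cycle. The dMF1/2 mice carried Cor-cre with both copies of Fgfr1 and of Fgfr2 floxed, a design meant to remove both FGF receptors from cells in which Cre acts. The control libraries are labelled wild type, but YFP appears only where Cre has acted, and the control genotype of the study that bears Cre has 1 floxed copy of each receptor.

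Smooth muscle contracts when myosin filaments pull on actin filaments. The dermal sheath, a layer of mesenchymal cells around the follicle, uses this machinery to constrict the follicle and to move it upwards in regression, and the DP is joined to its lower end. Vascular smooth muscle, pericytes and the arrector pili muscle express many of the same genes. In bulk RNA, fewer cells of a type and less RNA per cell cannot be told apart, and neither can these sources.

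The label of the genes as dermal sheath genes was checked against 3 sheath markers outside the 8. Itga8, an integrin subunit, had 1525 to 2127 normalized reads as group means, Col11a1, a fibrillar collagen, had 1964 to 3644, and Mylk, the kinase that activates smooth muscle myosin, had 7166 to 8841. Normalized reads are reads per gene divided by the size factor of the library. These levels do not tell sheath from vessel, since the 14 pericyte and vascular smooth muscle markers were also read in every library, at 796 to 1478 CPM (reads scaled to the depth of the library) in sum. The 8 contractile genes summed to 592 to 1870 CPM, and 12 DP markers to 1870 to 8215 CPM. The 10 dermal fibroblast markers, Col1a1 among them, summed to 77232 to 185110 CPM, far above both. Markers of hair follicle keratinocytes summed to 7.23 to 34.7 CPM, those of endothelium to 21.2 to 54.1 CPM, and those of skeletal muscle to 5.32 to 19.7 CPM. The genes are therefore called contractile genes here.

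The libraries held 19302358 to 29860750 reads in all listed genes. Both replicate 1 libraries of P14 stood apart. The collagen gene Col1a1 took 7.06% of the reads in control replicate 1 and 9.15% in dMF1/2 replicate 1, and 16.4% to 17.1% in the other 4 libraries of that day. At P16 it took 13.1% to 17.7%, with no such gap. Fgfr1, which was targeted, had a log2 fold change of -0.40 at P14 and -0.50 at P16 in dMF1/2 over control, neither called (limma's adjusted p = 0.501 and 0.130), and Fgfr2 had -0.11 and -0.01, not called either. Reads were counted over whole genes, so these values neither show the loss of the receptors nor test whether the floxed parts were removed.

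Start site sequences from RefSeq (GRCm38.p6) were at hand for 5 of the 8 genes, Acta2, Myl9, Cnn1, Des and Lmod1. Tagln, Myh11 and Actg2 were not in that table. Contractile genes are known targets of serum response factor, which binds CArG boxes, and TEAD factors bind the MCAT motif, CATTCC. Both motifs were searched as exact matches on both strands in the 250 bases before the start site. A CArG box stood in 1 of the 5, against 1.47% of all 32851 such windows, and MCAT stood in 2 of the 5, against 12.6% of all windows. The 3 stretches that held either one are printed on the gene's strand, with the matched motif in capitals. The Acta2 stretch runs to the RefSeq start site, while those of Myl9 and Lmod1 are cut at the deposited gene bound, which lies before it. Distances are counted from the RefSeq start site. That of Acta2 (chr19:34255374-34255623, minus strand) has MCAT read on the opposite strand from 146 bases before the start. That of Myl9 (chr2:156775214-156775419, plus strand) has the CArG box from 161 bases before the start. That of Lmod1 (chr1:135324563-135324806, plus strand) has MCAT on the opposite strand from 130 bases before the start. Each of the 3 stretches held 1 exact match. The exact search passes over near matches to the CArG box with 1 base changed, and these were not counted. The printed stretches hold some, ccctatatgg and ccttgtttgg in Acta2, ccttgtaagg in Myl9 and ctaaatttgg in Lmod1. The counts thus do not show that a gene lacks a CArG box. Only the letters were matched, and binding was not measured.
Acta2: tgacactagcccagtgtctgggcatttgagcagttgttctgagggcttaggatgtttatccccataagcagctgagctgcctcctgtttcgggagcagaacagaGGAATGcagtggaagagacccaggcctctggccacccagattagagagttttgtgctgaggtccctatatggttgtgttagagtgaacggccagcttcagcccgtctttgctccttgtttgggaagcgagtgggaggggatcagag
Myl9: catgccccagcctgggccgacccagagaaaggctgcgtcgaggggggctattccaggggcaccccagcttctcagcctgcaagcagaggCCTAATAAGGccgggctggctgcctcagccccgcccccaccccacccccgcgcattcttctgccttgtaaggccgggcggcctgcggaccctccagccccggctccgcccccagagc
Lmod1: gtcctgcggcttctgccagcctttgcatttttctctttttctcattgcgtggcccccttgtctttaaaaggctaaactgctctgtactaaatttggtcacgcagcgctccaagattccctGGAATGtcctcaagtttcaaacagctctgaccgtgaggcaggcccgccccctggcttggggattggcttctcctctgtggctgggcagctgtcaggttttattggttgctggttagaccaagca

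Levels per length were set side by side as RPKM, reads scaled to exon length and library depth. Acta2, smooth muscle α-actin, had the highest median over the 12 libraries, 153 RPKM, and Myl9, the regulatory light chain whose phosphorylation starts contraction, followed at 118 RPKM. Tagln (transgelin) had 56.6, Myh11, the smooth muscle myosin heavy chain, 43.7, Actg2, smooth muscle γ-actin, 30.1, and Des (desmin) 26.6 RPKM. Cnn1 (calponin) had 10.4 and Lmod1 (leiomodin, which nucleates actin filaments) 4.48 RPKM. Neighbours in this order overlapped over the libraries. Acta2 ranged from 86.1 to 224 RPKM and Myl9 from 60.8 to 177, while Lmod1 ranged from 2.48 to 8.57 and Cnn1 from 4.55 to 20.4. The lowest count of any of the 8 in a library was 215 reads, for Lmod1.

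The actins and myosins belong to families with similar coding sequences. Of 61-base windows of the transcripts, 0.0653% of those of Myh11 (5 of 7655) were found unchanged in another gene, and none of those of the other 7. With up to 2 mismatches to named relatives, 0.749% of the windows of Acta2, 1.81% of Actg2 and 1.32% of Myh11 had a match.

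The question of the design is whether loss of the receptors changed RNA levels at each day. The actins are given first. In the order of replicates 1, 2 and 3, Acta2 (chromosome 19, 34241090 to 34255336) had 4712, 8904 and 12314 normalized reads in P14 control and 5431, 12255 and 11412 in P14 dMF1/2 libraries. At P16 it had 4930.2, 11285 and 7444 in control and 4874, 8924 and 6689.5 in dMF1/2 libraries. Replicate 1 was the lowest in every group, and the genotypes overlapped on both days. Actg2 (chromosome 6, 83512905 to 83536265) had 464, 1529.9 and 1996 in control and 639, 1935 and 1644 in dMF1/2 libraries at P14. At P16 it had 532, 1586 and 1032 in control and 553, 1112 and 1109 in dMF1/2 libraries. Its lowest library was again replicate 1 in each group.

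Of the motor subunits, Myh11 (chromosome 16, 14194527 to 14291408) had 4227, 10058 and 16855 normalized reads in P14 control and 4668, 10563 and 13333 in P14 dMF1/2 libraries. At P16 it had 4506, 10503 and 8092 in control and 4187, 7670.3 and 7143 in dMF1/2 libraries. Its lowest and highest P14 control libraries were 3.99-fold apart. Myl9 (chromosome 2, 156775420 to 156781658) had 2107, 3597 and 4611 at P14 in control and 3028, 4870.3 and 5093 in dMF1/2 libraries. At P16 it showed 1841, 3482 and 2487 in control and 1997, 3408 and 2785 in dMF1/2 libraries. Myl9 was the only one of the 8 that was higher in dMF1/2 than in control in all 3 same-numbered pairs of P14.

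Next come the proteins that bind or build actin filaments. Tagln (chromosome 9, 45929628 to 45936058), an actin cross-linker, had 2015, 3289 and 4801 normalized reads in P14 control and 1985, 4611 and 4108 in P14 dMF1/2 libraries. At P16 Tagln had 1576, 3512 and 2353 in control and 1538, 2864 and 2373 in dMF1/2 libraries. Replicate 1 stood lowest here too. Cnn1 (chromosome 9, 22099281 to 22109630), which binds actin and restrains myosin, had 277, 1073 and 1404.5 in control and 400.1, 1321 and 1312 in dMF1/2 libraries at P14. At P16 Cnn1 had 325, 949.9 and 602 in control and 301, 725 and 635 in dMF1/2 libraries. Its P14 controls spanned 5.08-fold.

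Lmod1 (chromosome 1, 135324807 to 135368065) had 300.0, 462 and 852 normalized reads in P14 control and 245, 548 and 644 in P14 dMF1/2 libraries. At P16 it had 329, 477 and 484 in control and 232, 393 and 303 in dMF1/2 libraries. Its P16 groups overlapped in 1 library, dMF1/2 replicate 2, which lay above control replicate 1. Des (chromosome 1, 75360329 to 75368579), the intermediate filament that links contractile filaments to the cell's periphery, had 828, 2622 and 4272 in P14 control and 1157, 3116 and 3458 in P14 dMF1/2 libraries. At P16 Des had 1404, 3084 and 2331 in control and 1177.5, 2295.5 and 2238 in dMF1/2 libraries. Replicate 1 was the lowest in all 4 groups.

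**Figure D1:**
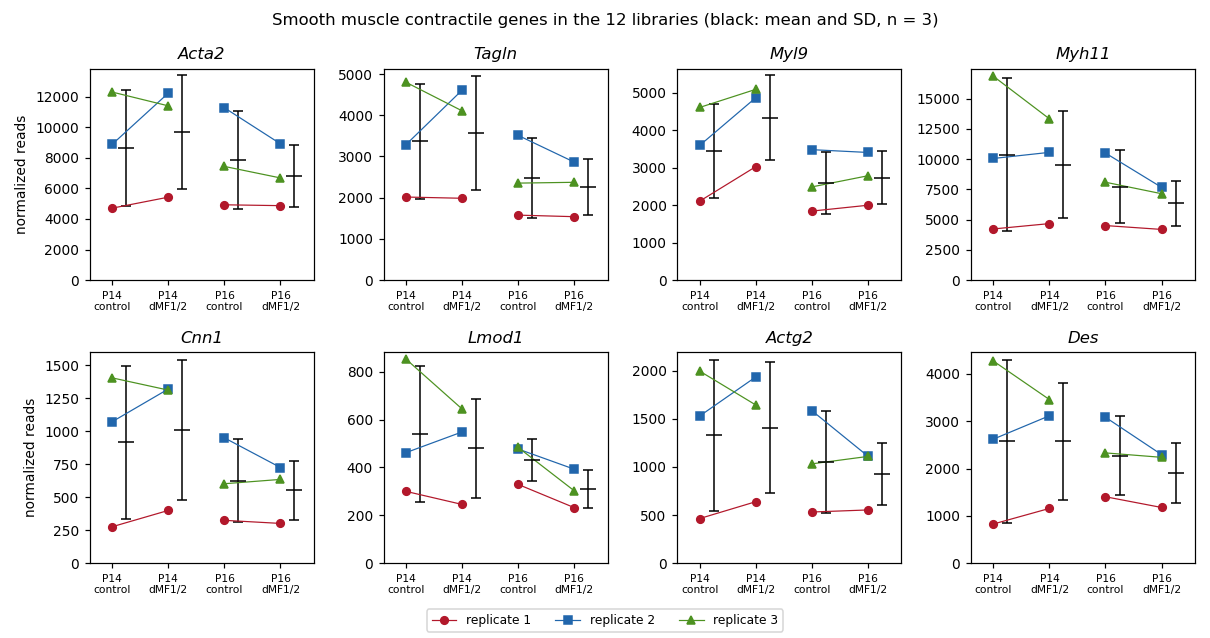
Normalized reads of each contractile gene (y axis, linear from 0) in the 12 libraries by group (x axis), with same-numbered libraries of a day joined and the mean ± SD (n = 3) in black; each day has its own scaling. Replicate 1 (red) lies lowest in each group for all 8 genes.

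The 8 genes shared their lowest library but not the highest. Replicate 1 was the lowest library for 8 of 8 genes in P14 control, P14 dMF1/2, P16 control and P16 dMF1/2 alike. Of all 13415 genes tested in the joint scaling, 2.8% had replicate 1 lowest in all 4 groups. Replicate 3 was the highest P14 control library for 8 of 8 genes and replicate 2 the highest P16 dMF1/2 library for 8 of 8. In P14 dMF1/2 the highest was replicate 2 for 4 genes and replicate 3 for 4, and in P16 control it was replicate 2 for 7 and replicate 3 for 1, Lmod1. The median fold between the highest and the lowest library of a group was 3.41 in P14 control, 2.74 in P14 dMF1/2, 2.26 in P16 control and 1.85 in P16 dMF1/2. Same-numbered libraries of a day deviated together across all genes, with a correlation of 0.256 to 0.586, and those of different days had -0.162 to 0.208. Replicate 1 of P14 and of P16 are different mice. The labels give same-numbered libraries of a day a shared letter (A, C and E for replicates 1, 2 and 3 at P14, B, C and D at P16), but do not say what the letter stands for.

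At P14 the low replicate 1 libraries were also those with a low share of Col1a1. At P16, Col1a1 took 17.7% of the reads in control replicate 1 and 15.7% in dMF1/2 replicate 1, within or above the 13.1% to 17.0% of the other 4, while the contractile genes were again lowest there. The DP markers in sum were highest in both replicate 1 libraries at P14 (8215 and 8120 CPM, against 3820 to 5136 in the other 4) and lowest of their group in both at P16 (1870 and 4031 CPM, against 3321 to 6312). The part of these differences in the contractile genes' levels was not tested.

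The variation in log2 normalized reads among the 6 libraries of a day was divided into what went with the replicate number, what went with genotype, and the rest. At P14 the number took 80.0% (Myl9) to 97.9% (Myh11) of it, with a median of 94.1% over the 8 genes and 50.2% over all 13334 genes tested. Genotype took a median of 1.28%, against 12.8% over all genes. At P16 the number took 53.1% (Lmod1) to 97.2% (Myl9), with a median of 93.4% against 41.5%, and genotype a median of 2.66% against 23.7%. Lmod1 at P16 stood apart from the other 7, with 42.2% going with genotype.

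**Figure D2:**
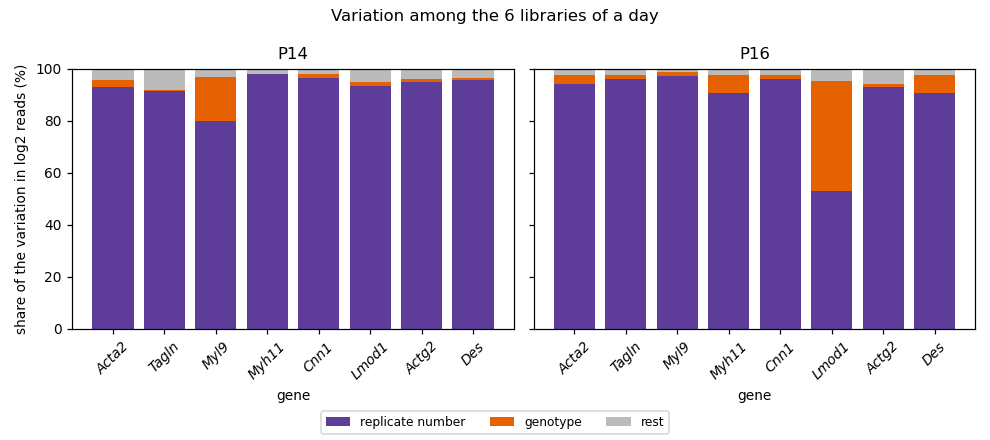
Share of the variation in log2 normalized reads (y axis, %) among the 6 libraries of P14 (left) and P16 (right) that went with the replicate number (purple), genotype (orange) or neither (grey), for each gene. The purple part is 80.0% or more in every bar but that of Lmod1 at P16, where it is 53.1%.

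At P14, dMF1/2 and control libraries differed by log2 fold changes from -0.15 (Lmod1) to 0.37 (Myl9), with a median of 0.16 against 0.00 over all genes. None of the 8 genes was called by limma, 0.0525% of all genes were, and none of the 8 had an unadjusted p under 0.05. DESeq2 and edgeR called none either. Myl9, at 3438 ± 1259 normalized reads in control and 4331 ± 1133 in dMF1/2 libraries (SD, n = 3), had a standard error of 0.32, a 95% interval from -0.38 to 1.11 and limma's adjusted p = 0.920. Acta2 had a log2 fold change of 0.19 with an interval from -0.81 to 1.185, and Cnn1, the widest, 0.24 with -1.40 to 1.88. The interval of Cnn1 thus held differences of 2-fold in either direction. Without both replicate 1 libraries, which was chosen after seeing the data, the log2 fold changes ran from -0.13 (Myh11) to 0.29 (Myl9), and again none was called.

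At P16, 7 of the 8 genes had a negative log2 fold change, from -0.48 (Lmod1) to -0.11 (Tagln), and Myl9 had 0.08. The median was -0.15, against -0.00 over all genes. limma called none of the 8, against 4.32% of all genes, and none had an unadjusted p under 0.05. DESeq2 and edgeR called none either, with 1 and 0 at an unadjusted p under 0.05. Acta2, the most abundant, had 7887 ± 3201 normalized reads in control and 6829 ± 2029 in dMF1/2 libraries (SD, n = 3), a log2 fold change of -0.17 with a 95% interval from -0.88 to 0.54. Myh11 and Des both had -0.25, with intervals from -1.003 to 0.51 and from -1.005 to 0.51.

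Lmod1 had 429.9 ± 87.3 normalized reads in P16 control and 309 ± 80.5 in P16 dMF1/2 libraries (SD, n = 3). Its log2 fold change was -0.48 with a standard error of 0.22, an interval from -0.99 to 0.02 and limma's adjusted p = 0.278, and the exact permutation test of the means (two-sided) gave p = 0.2, where 0.1 is the smallest that 3 against 3 can give. With the replicate number as a block it was called, at limma's adjusted p = 0.0333 and an interval from -0.73 to -0.24, where 10.4% of all genes were called. The same-numbered pairs differed by -0.50, -0.28 and -0.67 on the log2 scale, lower in dMF1/2 in 3 of 3 pairs. Acta2, Myh11 and Des were also lower in 3 of 3 pairs of P16. Over all the alternatives run, its adjusted p lay between 0.0302, from edgeR with the block, and 0.613, in the joint fit of both days. At P14 its log2 fold change was -0.15 and its pairs differed by -0.29, 0.25 and -0.40. Leaving out each P16 library in turn gave -0.67 to -0.30, with no block.

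The standard errors of the 8 genes were a median of 4.05 times larger without the block than with it at P14, and 3.83 times at P16. At P16 the interval with the block was -0.45 to -0.04 for Myh11 (limma's adjusted p = 0.130) and -0.45 to -0.05 for Des (0.123), and -0.36 to 0.02 for Acta2 (0.253). No other call changed with the block, under which 1.68% of all genes were called at P14. At P14 the interval with the block was 0.15 to 0.58 for Myl9 (limma's adjusted p = 0.129) and -0.045 to 0.53 for Cnn1 (0.474).

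**Figure D3:**
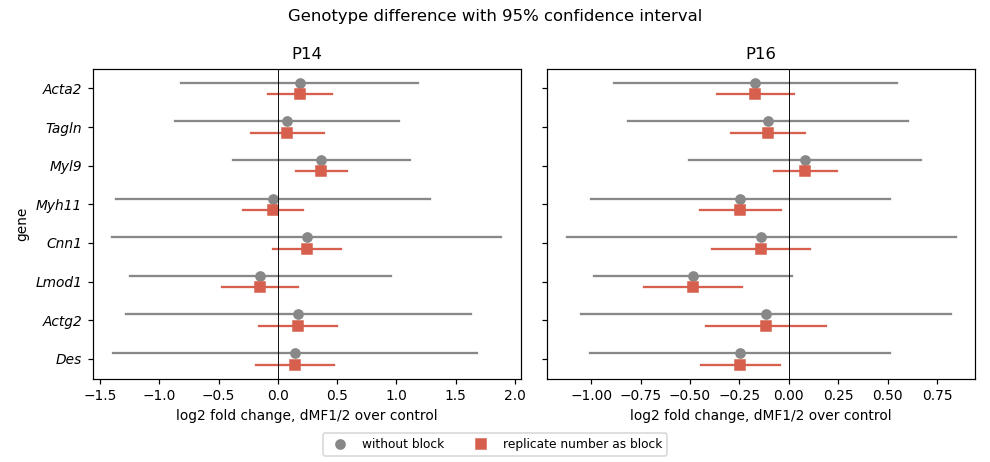
Log2 fold change of dMF1/2 over control (x axis, with its own range in each panel) with its 95% confidence interval for each gene at P14 (left) and P16 (right), without a block (grey circles) and with the replicate number as a block (red squares). The block leaves the values in place and narrows the intervals, and Lmod1 at P16 is the gene whose adjusted p passes 0.05 with it.

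Because the 8 genes moved together between libraries, each was also set against the mean of the other 7 in the same library. The spread within groups (SD of log2 reads) was 0.47 (Myl9) to 0.95 (Cnn1) for the reads themselves and 0.13 (Myh11) to 0.31 (Cnn1) for this difference, a ratio of 1.64 for Myl9 up to 6.02 for Myh11. Lmod1 minus the others at P16 was -2.17, -2.88 and -2.33 in control and -2.62, -2.81 and -2.9998 in dMF1/2 libraries, which overlap.

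Between the days, levels were compared in reads rescaled over all 12 libraries, and these comparisons use the same libraries as those of genotype. In control mice the log2 fold changes of P16 over P14 ran from -0.47 (Tagln) to -0.00 (Des), with a median of -0.31 against 0.01 over all genes. limma called 0 of the 8 against 14.5% of all genes, with none at an unadjusted p under 0.05, and DESeq2 and edgeR called 0. In dMF1/2 mice they ran from -0.82 (Cnn1) to -0.39 (Des), with a median of -0.58 against 0.01. Here too 0 of the 8 were called, against 5.8% of all genes, and 1 had an unadjusted p under 0.05. DESeq2 and edgeR called 0 as well. That gene was Myl9, with 3071.5, 4916 and 5142 rescaled reads at P14 and 1953, 3351 and 2732.5 at P16 in dMF1/2 replicates 1, 2 and 3. The highest P16 library of Myl9 lay above the lowest P14 library. Its log2 fold change was -0.71, with a 95% interval from -1.41 to -0.00 and limma's adjusted p = 0.219.

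Without both replicate 1 libraries of P14, the log2 fold changes between the days ran from -1.14 (Cnn1) to -0.53 (Acta2) in control and from -1.39 (Cnn1) to -0.88 (Acta2) in dMF1/2 mice. None of the 8 was called in that setting, with 4 and 8 at an unadjusted p under 0.05. The setting was chosen after seeing the data. Replicate 1 was the lowest library of every group for all 8 genes, and the P16 ones stayed in. Larger falls were thus fixed by the choice and are no support for a change between days. The direction of 6 genes in control turned without P14 control replicate 3, Acta2, Myh11, Cnn1, Actg2, Des and Lmod1.

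Whether the genotype difference changed between the days was tested as an interaction. Its estimates ran from -0.39 (Des) to -0.19 (Tagln), and limma called 0 of the 8, and 0 of all genes, with 648 of all genes and none of the 8 at an unadjusted p under 0.05. DESeq2 and edgeR called 0 of the 8. Without a block, the interval was from -1.29 to 0.71 for Myl9, the narrowest, and from -2.40 to 1.63 for Cnn1, the widest. The latter holds changes of 2-fold in either direction. With the replicate number as a block within a day, limma called 0 of the 8. Cnn1 then had an interval from -0.79 to 0.02 (limma's adjusted p = 0.486). Those of Acta2 (-0.71 to -0.01) and Myl9 (-0.56 to -0.02) lay below 0, at limma's adjusted p = 0.444 and 0.422. The other blocked intervals held 0.

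Other genes of the contractile pathway were read from lists. Of 28 tested genes of the wider contractile apparatus, 2 fell at P16 in dMF1/2 mice and none rose, where 2.14% of all genes fell and 2.18% rose, and at P14 none was called. Tagln2, a transgelin found in many cell types, had 2391 ± 401 normalized reads in control and 1451 ± 134 in dMF1/2 libraries (log2 fold change -0.71, adjusted p from limma = 0.0258). Vim (vimentin), the intermediate filament of mesenchymal cells, had 82842 ± 14267 and 48740 ± 1932 (SD, n = 3), which is -0.75 on the log2 scale (adjusted p from limma = 0.0466). Neither is specific to smooth muscle. The most abundant genes of the list that were not called were Actb, the cytoplasmic β-actin, at -0.12, and Flna, a filamin that cross-links actin, at -0.17. With the block, under which 10.4% of all genes were called, the list had 2 genes higher at P16, Synm (0.55, synemin) and Vcl (0.30, vinculin), and 4 lower, Myh9 (-0.35, a nonmuscle myosin) and Synpo2 (-0.36, synaptopodin 2) beside Tagln2 and Vim. Over the 28 genes the median log2 fold change was -0.11 at P16.

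Of 20 genes of contraction signalling, 1 rose at P16 and none fell, where 2.18% of all genes rose and 2.14% fell. Ednra, the receptor for endothelin that triggers contraction, had 1955 ± 354 normalized reads in control and 3515 ± 274 in dMF1/2 libraries (SD, n = 3), or 0.86 on the log2 scale (adjusted p from limma = 0.0162). It had 0.42 at P14, called with the block only (adjusted p = 0.0357). Rhoa and Atp2a2, a small GTPase and a calcium pump and the most abundant of the list, had -0.04 and -0.17 at P16. With the block (10.4% of all genes called), 3 genes of the list were higher at P16, Itpr1 (0.80, a calcium release channel) and Kcnma1 (1.14, a potassium channel) beside Ednra, and 2 were lower, Cacna1c (-0.69, a voltage-gated calcium channel) and Ryr2 (-0.87, the ryanodine receptor). Of 12 transcriptional regulators, Smad3, which carries TGFβ signals to the nucleus, rose from 1422 ± 85.6 to 1901.5 ± 168 normalized reads at P16 (SD, n = 3), or by 0.42 on the log2 scale (adjusted p from limma = 0.0479). The regulators Klf4 and Fhl1, the most abundant, had -0.20 and 0.05. With the block 2 of the regulators were higher at P16, Smad3 and Mkl1 (0.33, a coactivator of serum response factor), and Myocd, the coactivator of serum response factor in smooth muscle, was called at P14 with a log2 fold change of 0.69 (adjusted p = 0.0427).

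These calls depended on single libraries and on the fit. With 1 P16 library left out, the adjusted p of Tagln2 ran up to 0.108, that of Vim from 0.0520 to 0.144, that of Ednra up to 0.0722 and that of Smad3 from 0.0647 to 0.149. Tagln2 lost its call without control replicate 3, dMF1/2 replicate 1 or dMF1/2 replicate 3, Ednra without control replicate 3, dMF1/2 replicate 2 or dMF1/2 replicate 3, and Vim and Smad3 whichever of the 6 libraries was left out. With all libraries, Smad3 was not called in the joint fit of both days (limma's adjusted p = 0.123), nor Vim with no filter on low values (0.0575). Without both replicate 1 libraries of P16, an alternative chosen after seeing the data, Tagln2 (0.128), Vim (0.253) and Smad3 (0.154) were not called, and Ednra was (0.0270).

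Of the sheath markers outside the 8, Mylk had a log2 fold change of -0.29 at P16, Col11a1 0.24 and Itga8 -0.28, none called. Itga8 was called at P14 with the block (-0.43, adjusted p = 0.0430). Of 13 tested pericyte and vascular smooth muscle markers, which include Des, 1 fell at P16, where 2.14% of all genes fell. Cspg4, a proteoglycan of pericytes, had 12501 ± 3097 normalized reads in control and 3047 ± 870.5 in dMF1/2 libraries (SD, n = 3), or -2.05 on the log2 scale (adjusted p from limma = 0.00604), and it stayed called whichever of the 6 libraries was left out. Rgs5, a regulator of G protein signalling in pericytes, had -0.55 and Notch3, a receptor of mural cells, -0.22, neither called. With the block 4 of the 13 were lower at P16 and 0 higher, where 10.4% of all genes were called. These were Cspg4, Abcc9 (-0.38), Aoc3 (-0.34) and Itga7 (-0.43), and none of the 13 was called at P14. All 14 markers of the list had reads in every library. In sum they had 1333 to 1478 CPM in P16 control and 796 to 946 CPM in P16 dMF1/2 libraries, and without Cspg4 and Des 786 to 857 and 564 to 768 CPM. At P14 the sums were 808 to 1223 CPM in control and 850.0 to 993 CPM in dMF1/2 libraries. Their part in the values of the contractile genes, Lmod1 among them, was not tested.

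Of 12 DP markers, 3 rose and 1 fell at P16, where 2.18% of all genes rose and 2.14% fell. With the block 9 were higher and 1 lower, where 10.4% of all genes were called. Rspo3, a secreted enhancer of Wnt signals, had a log2 fold change of 3.20, Alpl, alkaline phosphatase, 2.45, Prom1 1.07 and Crabp1, a retinoic acid binding protein, -0.66. Rspo3 and Alpl kept their calls whichever library was left out, while Prom1 and Crabp1 were each called in 1 of the 6 fits with a library left out, with limma's adjusted p of up to 0.119. Crabp1 was also not called in the joint fit of both days (0.192) or without both replicate 1 libraries of P16 (0.0572). The DP markers Wif1 and Corin, the most abundant over both days, had 0.86 and 1.73 at P16, called with the block only (limma's adjusted p = 0.0396 and 0.0105). The other 4 called with the block alone were Hhip (1.34), Sox2 (1.01), Sox18 (0.72) and Lef1 (0.47). At P14, the block gave 1 DP marker higher, Alpl (1.41), and 2 lower, Crabp1 (-1.18) and Vcan (-0.61), where 1.68% of all genes were called. Without it none of the DP markers was called, against 0.0525% of all genes. No gene of the fibroblast, keratinocyte, melanocyte, endothelial, immune and skeletal muscle lists was called by genotype on either day without the block, and with the block 3 fibroblast markers (Pdgfra 0.43, Mfap5 0.31 and Dpt -0.34) and 2 endothelial markers (Pecam1 -1.14 and Esam -0.68) were called at P16.

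Likeness to the contractile genes was described by Pearson's r over the 12 libraries with the mean standardised profile of the 8. The libraries are shared by all genes and fall into 4 groups, so r is a description only. The 8 themselves had r from 0.92 (Lmod1) to 0.99 (Cnn1) with the mean they enter. The 10 other genes most like them were Igsf9b (0.98), Nptx2 (0.96), Pdlim3 (0.96), Ckm (0.95), Akap5 (0.95), Pde4c (0.95), Mmp17 (0.94), Fbxl22 (0.94), Jph2 (0.94) and Tpm1 (0.94). Pdlim3 encodes a PDZ and LIM domain protein that binds α-actinin, Ckm the muscle creatine kinase, Jph2 a junctophilin that joins the cell membrane to the calcium store, and Tpm1 a tropomyosin. None of the 10 was called by genotype on either day. At P16 their log2 fold changes ran from -0.35 (Nptx2) to 0.07 (Akap5). Of 13407 genes other than the 8, 23 had r of at least 0.9, among them Actn1, an α-actinin, Kcnmb1, a subunit of the smooth muscle potassium channel, and Mcam, a membrane protein of pericytes and vascular muscle.

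By list, the median r was 0.65 over 28 genes of the contractile apparatus, of which 9 had 0.8 or more. Over all other genes the median was -0.01, and 0.828% had 0.8 or more. Contraction signalling had a median of 0.33 with 2 of 20 genes at 0.8 or more, the transcriptional regulators 0.25 with 1 of 12, and the pericyte and vascular smooth muscle markers, Des left out, 0.16 with 1 of 12. Mylk, Itga8 and Col11a1 had 0.84, 0.79 and 0.54. The called genes Ednra, Smad3, Vim and Cspg4 had -0.00, -0.39, -0.18 and -0.20, and Tagln2 had 0.30. The DP markers had r from -0.62 to 0.45 and the keratinocyte markers from -0.25 to -0.02. The 5 tested skeletal muscle markers had a median r of 0.60, from -0.43 to 0.95 (Ckm), and the 10 fibroblast markers 0.45, from -0.46 to 0.76 (Clec3b). The skeletal muscle sum, like that of the contractile genes, was lowest in replicate 1 in all 4 groups, and the fibroblast sum in both groups of P14. Their part in the contractile genes' levels was not tested.

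**Figure D4:**
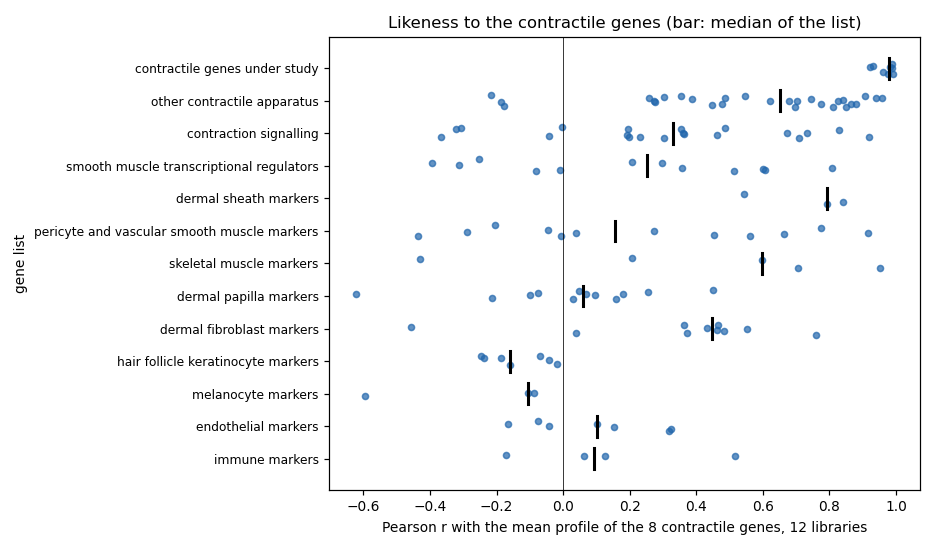
Pearson's r (x axis) of each listed gene with the mean profile of the 8 contractile genes over the 12 libraries, by gene list (y axis), with a bar at each list's median. The 8 genes lie at 0.92 or above with a mean that each of them enters, the contractile apparatus has a median of 0.65, and the DP markers lie between -0.62 and 0.45.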

How the data were processed

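RNA of YFP-sorted DP cells was sequenced from 12 mice. Per the labels, libraries were stranded, and the submitters' processing notes name Trimmomatic, TopHat2, HTSeq and DESeq2 with mm10 and GRCm38.p4. The values the authors deposited are a signal, reads per protein-coding gene divided by DESeq2 size factors within a day; every value (100% within 0.01 of a whole number) gave whole reads. The authors' own fold changes, Wald scores and p-values were in the tables and were not used. Depths of 19302358 to 29860750 reads leave little counting error for the 8 genes. Precision is set by the spread among 3 mice per group and by whether the replicate number enters the fit.

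limma 3.58.1 (R 4.3.3) with a mean-variance trend was fitted to log2(value + 1) of every gene whose mean was 10 or more, with Benjamini-Hochberg adjustment over all and a threshold of 0.05. A fold change is on that scale. Genotypes were compared within a day in the deposited scaling. Days and the interaction were fitted over 12 libraries after median-of-ratios scaling of 14986 shared genes. The labels give each library a letter that control and dMF1/2 libraries of the same number and day share, without its meaning. No source used here says from what litters the mice came. RPKM used exon lengths of GENCODE vM21. The members, lists and tests were chosen with earlier results of these data known. Named from each other list were genes called by genotype, at most 4, and the 2 most abundant uncalled ones; genes most like the 8 were the 10 of highest r. List genes called with the block are named besides, chosen after their values were seen.

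Same-numbered libraries of a day deviated together from their group means (r across genes 0.586, 0.389 and 0.304 at P14, 0.256, 0.293 and 0.311 at P16), while across days r was -0.162 to 0.208, so the number was a block within a day as an alternative. A planned block between days, by number within a genotype, joined mice that share only a number. The others were DESeq2 1.42.0, edgeR 4.0.16, TMM, pseudocounts of 0.1 and 10, no filter, one fit of all libraries or of those compared alone, and leaving out libraries. On simulated reads the genotype fit at P16 recovered 81% of genes changed by 1 on the log2 scale and 92% of those changed by 2 (13377 genes, 3.89% of calls false), and the fit between days in control 71% and 99% (13366 genes, 4.49% false).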

Additional observations from a re-analysis of the deposited data

How the results depend on the processing

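Of 680 refits of the 8 genes' fold changes, 613 kept their direction and stayed uncalled, 64 turned direction, 62 of them with 1 library left out, and 3 were called, all of Lmod1 at P16 under the replicate block (limma, edgeR and DESeq2, 1 contractile gene called in each). The blocked adjusted p of Lmod1 was 0.0333, 0.0302 and 0.0445. The block changed no other call of the 8. With 1 library left out the count of the 8 called stayed 0 in all 5 comparisons. Without the block, intervals of over 1 log2 unit on either side for several genes limit what 3 mice per group can show. With it, those of the genotype difference lay between -0.47 (Lmod1) and 0.58 (Myl9) at P14. At P16 they lay between -0.73 (Lmod1) and 0.24 (Myl9). What the shared number stands for is not known.

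Counts over all genes moved more. At P14, 7 genes were called, 224 with the block, 245 by edgeR and 362 by DESeq2 with it, 207 by DESeq2 without it, 11 in the joint fit, and 0 to 18 with 1 library left out. At P16, 582 were called, 1403 with the block, 1439 by edgeR and 1207 by DESeq2 with it, 1121 by DESeq2, 350 without both replicate 1 libraries, and 149 to 684 with 1 left out. The block between days joined P14 and P16 mice of a genotype by number, though these numbers do not pair them. Between days in control, 1951 were called, 1125 with that block, 806 from the compared libraries, 951 without both replicate 1 libraries of P14, and 693 to 1945 with 1 left out. In dMF1/2 mice, 778 were called, 1331 by DESeq2, 370 with that block, 322 from the compared libraries, and 257 to 678. The interaction gave 0, 7 by DESeq2, 2 without both replicate 1 libraries of P14, and 0 to 2. The cause was not tested.

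Des turned to -0.028 at P14 without both replicate 1 libraries, and to 0.000109 between days in control with a pseudocount of 0.1. With 1 library left out, the log2 fold changes that turned had these ranges. At P14 they were Acta2 -0.20 to 0.56, Actg2 -0.46 to 0.67, Myh11 -0.58 to 0.42, Tagln -0.25 to 0.46, Cnn1 -0.47 to 0.82, Lmod1 -0.50 to 0.28 and Des -0.53 to 0.65. At P16 they were Acta2 -0.47 to 0.13, Actg2 -0.54 to 0.25, Myh11 -0.59 to 0.027, Myl9 -0.14 to 0.32, Tagln -0.39 to 0.18, Cnn1 -0.55 to 0.25 and Des -0.56 to 0.069. Between days in control they were Acta2 -0.53 to 0.16, Actg2 -0.91 to 0.15, Myh11 -0.88 to 0.12, Cnn1 -1.14 to 0.026, Lmod1 -0.61 to 0.14 and Des -0.67 to 0.51, and in dMF1/2 mice none turned. Those of the interaction were Acta2 -0.73 to 0.026, Actg2 -0.78 to 0.34, Myh11 -0.67 to 0.33, Myl9 -0.54 to 0.029, Tagln -0.56 to 0.14, Cnn1 -0.96 to 0.33, Lmod1 -0.76 to 0.015 and Des -0.90 to 0.28. At P16, 6 genes turned without control replicate 2 or dMF1/2 replicate 1, and all 8 interaction estimates turned without P14 control replicate 1.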
